A study of Mus musculus with 9 samples.

Results

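The translation initiation factors (eIFs) and elongation factors (eEFs) of a mouse neuroblastoma line were examined by their transcripts after the level of Tcof1 had been raised or lowered. Members were the probe sets with exactly 1 gene symbol in the platform annotation whose symbol starts with Eif and a digit from 1 to 6, or with Eef1 or Eef2. This gave 118 probe sets of 52 genes, out of 20380 probe sets of 12393 genes with 1 symbol. Of the 52 genes, 22 had 1 probe set and 30 had several, up to 6. The rule itself rests on gene names alone, but it was chosen with earlier results of these data known.

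RNA came from N1E-115, a mouse neuroblastoma line, in 3 groups of 3 arrays each, lettered A, B and C. The overexpressed group was cells of this line overexpressing mouse Tcof1, the wildtype group was the line itself, and the knockdown group was the line with Tcof1 knocked down. All groups share the same parent line, and each array holds total RNA. The sources used here do not give the vector, the agent of the knockdown, the time of harvest, whether a group is 1 clone or whether the letters are separate cultures. Each p-value below is thus a measure of the spread among these 9 arrays alone, and that spread may be technical.

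The product of Tcof1 is treacle, which in the nucleolus helps make ribosomal RNA. Initiation factors bring the initiator tRNA and the messenger RNA to the small ribosomal subunit: eIF2 carries the tRNA, eIF4F binds the cap and unwinds the leader, and eIF3 is the large scaffold that joins them. Elongation factors then deliver each aminoacyl tRNA (eEF1) and move the ribosome along (eEF2). Both steps are controlled through phosphorylation of eIF2, through proteins that hold the cap-binding protein eIF4E, and through a kinase that inactivates eEF2.

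Values are the linear intensities that the authors deposited, 1 per probe set and array. Array medians lay between 164.1 and 185.95, and log2 values of arrays correlated at 0.972 to 0.978 inside a group and at 0.956 to 0.978 across groups. Among the probe sets, 1 of 3 for Tcof1 was called higher in overexpressed over wildtype (log2 fold change 0.87 ± 0.21 SE, limma adjusted p = 0.0241), and that call was lost without overexpressed array A or C or wildtype array A or B (0.0511 to 0.0973). The brightest of the 3, 1424643_at, was not called there (0.39, limma adjusted p = 0.187). None of the 3 was called in knockdown over wildtype, with values of -0.22, -0.40 and 0.06, so no call against wildtype checks the knockdown. By the first, 1423600_a_at, the knockdown arrays (112.1 to 134.8) lay below the wildtype arrays (143.1 to 156.3). By the other 2 the groups overlapped. Over all probe sets, these groups did not overlap in 15.6%. In overexpressed over knockdown 2 of 3 were called higher (1.09 ± 0.21, limma adjusted p = 0.0116, and 1.03 ± 0.20, adjusted p = 0.0137), and each of these calls was lost without 1 overexpressed array (A for the first, B for the second). Of 11 measured neuroblastoma and sympathoadrenal markers, 8 were above the median brightness of all probe sets, Th, Dbh, Phox2a, Hand2, Chga and Stmn2 among them, while Ddc, Nefl and Nefm were dim. With raised Tcof1, Chga (-0.75, limma adjusted p = 0.00309) and Stmn2 (-0.38, adjusted p = 0.0472) were called lower and Dbh (0.60, adjusted p = 0.00769) was called higher. The summed intensity of the 11 markers was 18578 to 21191.3 in the overexpressed arrays, below the 23136.8 to 24883.2 of wildtype and the 23391 to 24891.2 of knockdown. Of the markers of other cells, 1 of 6 fibroblast, 1 of 2 Schwann cell and 1 of 4 blood cell genes were above that median. The summed intensity of the 4 blood cell markers was 496.7 to 529.7 in the overexpressed arrays, 1050.8 to 1211.2 in the wildtype arrays and 903.7 to 1073.7 in the knockdown arrays, and came mostly from Cd74 (-1.28 in overexpressed over wildtype, limma adjusted p = 0.00031), while Ptprc, which defines blood cells, was dim. The part of these differences in the results below was not tested.

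When Tcof1 was raised, 12 of the 52 translation factor genes had a called probe set: Eef1e1, Eif6, Eif4ebp2, Eif4ebp1, Eif5a, Eif1ax, Eif2s2 and Eif4g2 were higher than in wildtype, and Eif4b, Eef2k, Eif3a and Eif3c were lower. A call is an adjusted p under 0.05 from limma, fitted on log2(intensity + 16) over all 9 arrays with Benjamini-Hochberg adjustment over 22626 probe sets. The matching share over all genes was not computed for the count of 12, and a gene with several probe sets has more chances of a call. At the level of probe sets, 14 of 118 (11.9%) were called, against a background of 9.59% of all probe sets. Of these, 8 were higher (6.78%, background 4.52%) and 6 were lower (5.08%, background 5.07%). The overexpressed and wildtype arrays did not overlap in 38 of 118 probe sets (32.2%, background 27.8%). The shares therefore lay near those of the array as a whole.

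With each gene represented by its brightest probe set, 7 of 52 genes were called (13.5%, against 11.2% of all genes), 4 higher and 3 lower. The median log2 fold change of the 52 genes was -0.02, beside -0.03 for all genes. They ran from -0.48 to 0.69, with 23 above 0 and 29 below. The group as a whole thus stood where the other transcripts stood, and the calls belonged to single genes in both directions.

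**Figure D1:**
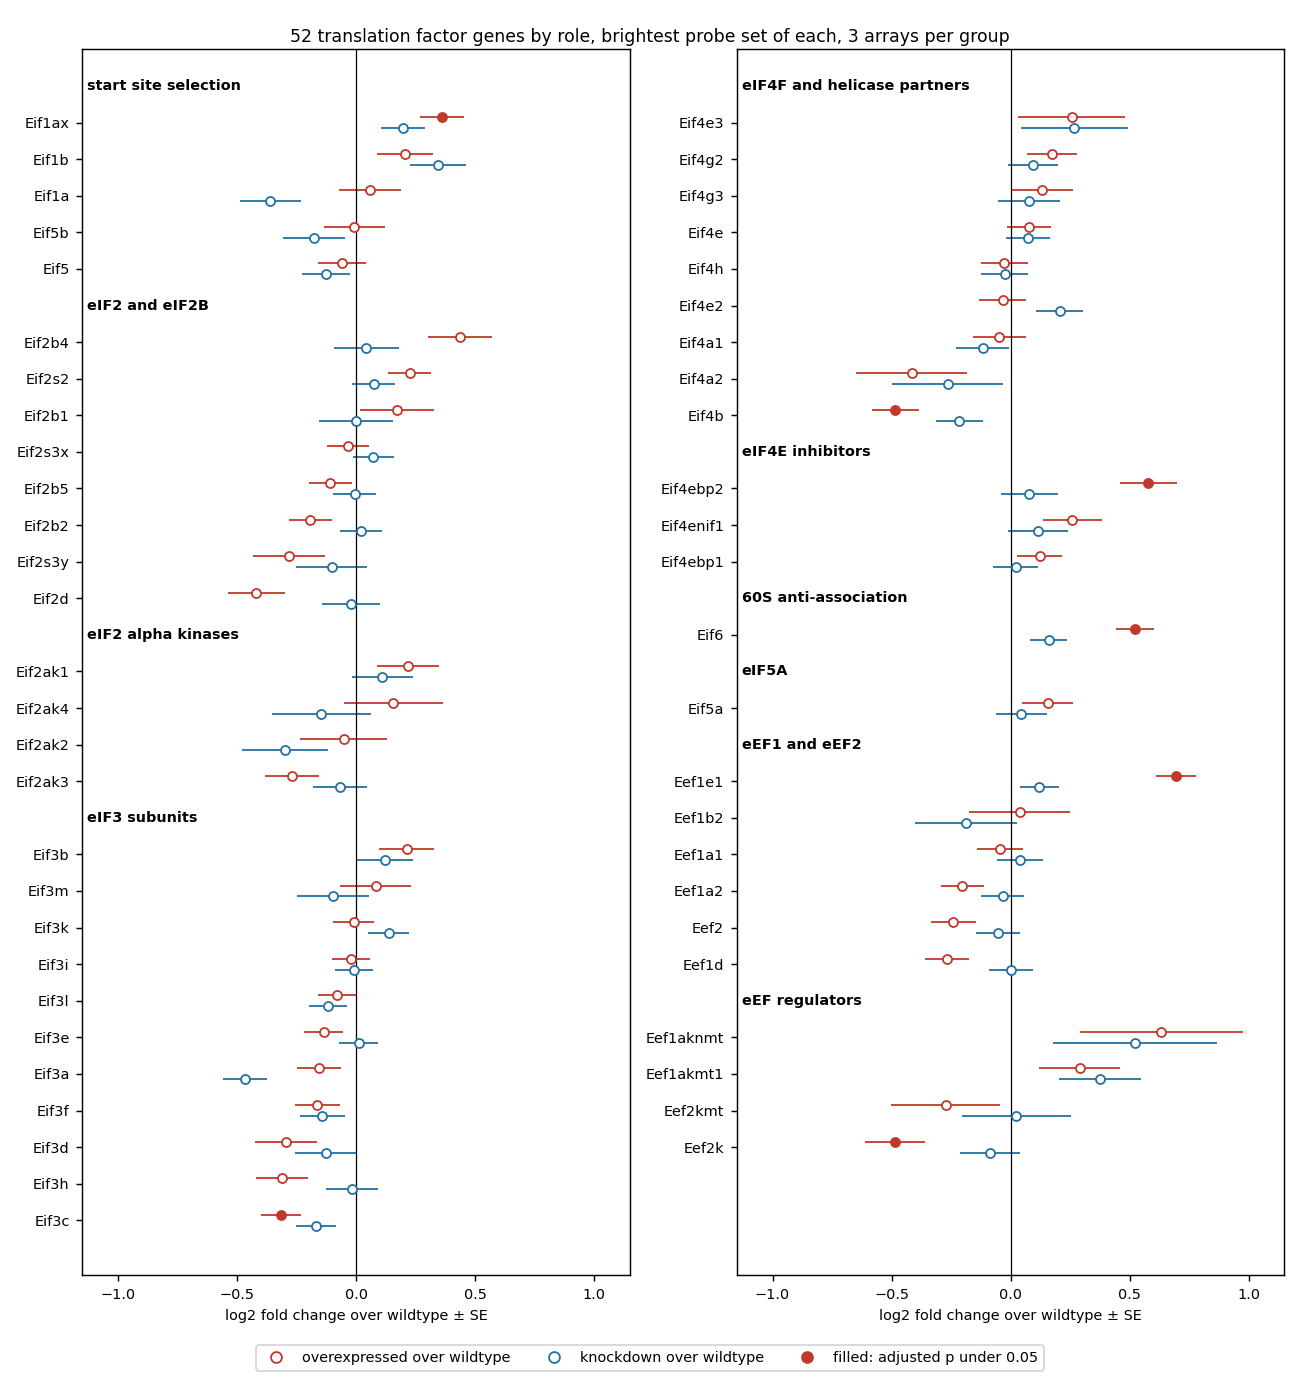
Log2 fold change over wildtype ± SE on the log2(intensity + 16) scale for the brightest probe set of each of the 52 genes, grouped by role, with red for overexpressed, blue for knockdown and filled circles for adjusted p under 0.05. The 7 filled circles are all red; Eef1e1 lies farthest to the right among them (0.69), and Eif4b and Eef2k lie farthest to the left (both -0.48).

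Of the 52 genes, 42 had a promoter in the RefSeq table of assembly GRCm38.p6, which spans 250 bases before to 50 bases after each transcription start and gave 57 promoters. The E-box CACGTG, a palindrome that reads the same on both strands and is the known binding sequence of Myc with its partner Max, occurred in 11 of the 42 genes (26.2%). It occurred in 8.09% of the 27025 genes of the table and in 10.8% of the 9883 genes that are also on the array. Counted by promoter, it was present in 13 of 57 (22.8%), against 7.15% of 32851. Of the 9 called genes with a promoter 3 held it, and of the 33 uncalled genes 8 held it. The sequence TGATGNAA, searched on both strands as the ATF4 element, occurred in 2 of 42 genes (4.76%), beside 4.51% of all genes of the table and 3.13% of the array genes. A match describes the letters in these windows and is not a measured binding site.

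The 120 bases before the start are shown for 4 of these genes, with the E-box in capitals, to show where it lies. Eif5a and Eef2k were called in overexpressed over wildtype, and Eef2 and Eif4e, the translocase and the cap-binding protein, were not. The Eif5a stretch lies at chr11:69921387-69921506 on the minus strand, the Eef2k stretch at chr7:120842711-120842830 on the plus strand, the Eef2 stretch at chr10:81176511-81176630 on the plus strand and the Eif4e stretch at chr3:138527148-138527267 on the plus strand, all in GRCm38.p6 and read 5′ to 3′ in the direction of the gene. The first base of the E-box lies 74, 31, 43 and 64 bases before the start, in that order. Eif5a has 6 promoters in the table, Eef2k 3, Eef2 1 and Eif4e 2, and 1 is shown for each.
Eif5a: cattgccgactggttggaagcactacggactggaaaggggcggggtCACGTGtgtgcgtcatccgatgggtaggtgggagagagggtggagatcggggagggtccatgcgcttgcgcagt
Eef2k: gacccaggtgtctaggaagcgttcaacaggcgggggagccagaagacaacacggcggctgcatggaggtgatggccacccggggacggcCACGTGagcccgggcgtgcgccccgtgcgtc
Eef2: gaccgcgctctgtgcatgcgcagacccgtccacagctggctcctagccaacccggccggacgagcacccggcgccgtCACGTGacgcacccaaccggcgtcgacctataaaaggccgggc
Eif4e: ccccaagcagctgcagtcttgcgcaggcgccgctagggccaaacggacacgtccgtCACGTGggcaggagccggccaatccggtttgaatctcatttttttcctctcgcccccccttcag

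Among the factors that select the start site, 1 of 5 genes was called in overexpressed over wildtype. Eif1ax, which encodes an eIF1A that keeps the scanning ribosome open, measured 3893, 4641 and 4292.4 in overexpressed arrays A, B and C, 3080.4, 3303.9 and 3588.3 in wildtype and 3965.7, 3704.4 and 3752.5 in knockdown. The overexpressed and the knockdown arrays were all above the wildtype arrays and overlapped with each other. Eif1ax rose by 0.36 ± 0.09 (SE; 1.28-fold, limma adjusted p = 0.031) with raised Tcof1. That call was lost without overexpressed array B or C or wildtype array A or B (adjusted p 0.0823 to 0.114) and without the mean-variance trend (0.123). The related gene Eif1a had a value of 0.06 ± 0.13. Eif5, the GTPase-activating protein of eIF2, gave -0.06 ± 0.10 by its brightest probe set and 0.31 ± 0.09 (adjusted p = 0.0558) by 1454664_a_at, so its 4 probe sets did not give 1 direction.

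Among the 8 genes of eIF2, its exchange factor eIF2B and Eif2d, 1 had a called probe set. Eif2s2 encodes the beta subunit of eIF2, and its probe set 1456617_a_at read 5637.9, 5616.4 and 5567 in the overexpressed arrays, 4383.4, 4226 and 4311 in wildtype and 4592.6, 4405.8 and 4471.3 in knockdown. All 3 overexpressed arrays lay above the other 6, and the spread within each group was small. Eif2s2 rose by 0.38 ± 0.07 (1.3-fold, limma adjusted p = 0.00669), a call lost only without the mean-variance trend (0.0623). Its brightest probe set gave 0.22 ± 0.09 (adjusted p = 0.155), and 1 of its 6 probe sets, 1448819_at, had the opposite sign (-0.19 ± 0.14).

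Eif2d, whose protein can place a tRNA on the ribosome, measured 371.8, 393.8 and 369.8 in the overexpressed arrays, 532.5, 538.5 and 465.7 in wildtype and 571.3, 482.2 and 462.4 in knockdown by its brightest probe set. The overexpressed arrays were the lowest 3 of the 9. Its difference of -0.42 ± 0.12 missed the threshold (limma adjusted p = 0.0543) and passed it under 3 of 18 alternatives. Eif2b4, a subunit of eIF2B, had a value of 0.44 ± 0.14 (adjusted p = 0.0692) and Eif2b2, another, of -0.19 ± 0.09 (adjusted p = 0.228).

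None of the 4 kinases that phosphorylate eIF2 alpha had a called probe set in any comparison. The smallest p against wildtype with raised Tcof1 was that of Eif2ak3 (PERK, the kinase of endoplasmic reticulum stress), at -0.27 ± 0.11 (limma adjusted p = 0.181). Its arrays read 530.4, 480.1 and 522.9 with raised Tcof1, 683.5, 585.5 and 591.5 in wildtype and 565.8, 655.7 and 553.4 in knockdown, so that the overexpressed arrays were below both other groups. Eif2ak2 (PKR, activated by double-stranded RNA), Eif2ak1 and Eif2ak4 gave -0.05, 0.22 and 0.16 by brightest probe set. The other Eif2ak2 probe set, 1422006_at, gave 0.47 (limma adjusted p = 0.263), of opposite sign. Of the 3 Eif2ak3 probe sets, 1 lay above 0.

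The eIF3 subunits were measured by 26 probe sets of 11 genes, and 2 genes, Eif3a and Eif3c, had a probe set called lower with raised Tcof1. By brightest probe set 9 of 11 genes lay below 0, with a median of -0.14, and that median stayed below 0 in all 18 alternatives (-0.19 to -0.09). Of all genes, 46.5% lay above 0. The 11 values ran from -0.32 for Eif3c to 0.21 for Eif3b, and most were within the spread between arrays.

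Eif3a encodes the largest scaffold subunit of eIF3. Probe set 1416659_at read 2938.1, 2867.1 and 2828.7 in the overexpressed arrays, 4178.2, 3365.8 and 3404.5 in wildtype and 2590.5, 2746 and 2769.8 in knockdown. Both altered groups lay below wildtype, and wildtype array A stood above the other wildtype arrays. Eif3a fell by 0.33 ± 0.09 in overexpressed over wildtype (limma adjusted p = 0.0475), with -0.28, -0.16 and -0.33 by its other 3 probe sets, none of them called. The call was lost in 11 of 18 alternatives, among them the fits without any 1 array other than wildtype array C (adjusted p 0.0617 to 0.122) and the fit with the letter as a replicate block (0.0644).

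Eif3c, a core subunit that contacts the small ribosomal subunit, read 7107.3, 8087.9 and 8036.6 in the overexpressed arrays, 9182.9, 10147.5 and 9570.3 in wildtype and 8913.3, 8367.8 and 8436.9 in knockdown by 1456374_x_at. The overexpressed arrays were the lowest, the wildtype arrays the highest, and no group overlapped another. Eif3c fell by 0.32 ± 0.08 (limma adjusted p = 0.0402) and gave -0.09 to -0.36 by its other 3 probe sets, none called. The call was lost without any 1 of the 9 arrays (adjusted p 0.0503 to 0.154), with the replicate block (0.0544) and with quantile normalization (0.0705). A common array median (0.114) and a fit without the mean-variance trend (0.143) also lost this call. The x in the name marks a probe set whose probes can match other transcripts, which the table does not resolve.

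In eIF4F, the cap-binding complex, and its helicase partners, Eif4b fell and Eif4g2 had 1 probe set that rose, out of 9 genes. Eif4b encodes eIF4B, which stimulates the helicase eIF4A. All 3 of its probe sets were called lower in overexpressed over wildtype. Probe set 1426380_at read 2493.6, 2638.1 and 2681.5 in the overexpressed arrays, 4206.4, 3711.4 and 3375.3 in wildtype and 3055.1, 3040.5 and 3202.8 in knockdown. The groups did not overlap, with the overexpressed arrays lowest and the knockdown arrays between. By this probe set Eif4b fell by 0.52 ± 0.09 (0.696-fold, limma adjusted p = 0.00528).

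Probe set 1426379_at of Eif4b read 1458.8, 1455.8 and 1358.3 in the overexpressed arrays, 2995.2, 2072.2 and 2013.5 in wildtype and 1514.5, 1436.6 and 1308.6 in knockdown. Here both altered groups were alike and below wildtype, and wildtype array A was well above the rest. Its change was -0.70 ± 0.14 (limma adjusted p = 0.0105). The brightest probe set, 1426378_at, read 2875.3, 3295.2 and 3368.9 in the overexpressed arrays, 4853.2, 4470.5 and 4041.5 in wildtype and 3696, 4128 and 3664.7 in knockdown, and changed by -0.48 ± 0.10 (adjusted p = 0.0117). The calls of 1426380_at and 1426379_at held in all 18 alternatives, and that of 1426378_at was lost without overexpressed array A (0.051) and without the mean-variance trend (0.062).

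Eif4g2 encodes DAP5, a relative of the eIF4G scaffold that does not bind eIF4E. Its probe set 1415863_at read 4066.6, 3477.6 and 2900.4 in the overexpressed arrays, 2146.3, 2453.8 and 2813.6 in wildtype and 2553.9, 2572.2 and 2632.7 in knockdown. The overexpressed arrays were above all others but lay far apart. Eif4g2 rose by 0.49 ± 0.13 by this probe set (1.4-fold, limma adjusted p = 0.0378). The call was lost in 10 of 18 alternatives, including the fits without any 1 array other than overexpressed array C or wildtype array C (0.0534 to 0.131) and the replicate block (0.0673). Its brightest probe set gave 0.17 ± 0.11, and the dim 1428363_at had the opposite sign (-0.13 ± 0.40).

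The cap-binding protein gene Eif4e itself gave 0.08 ± 0.09 (limma adjusted p = 0.706). Eif4a1, the main helicase, gave -0.05 ± 0.11, and Eif4h, a cofactor of the helicase, gave -0.03 ± 0.10. Eif4a2, the second helicase, read 3455.2, 2294.7 and 1442.4 in the wildtype arrays, which spanned the 1666.2 to 1719.4 of the overexpressed arrays, and its value of -0.42 ± 0.23 was not called (adjusted p = 0.336). Eif4e2, Eif4e3 and Eif4g3 gave -0.03, 0.26 and 0.13, none of them called.

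The proteins that hold eIF4E away from eIF4G were higher with raised Tcof1 in 2 of 3 genes, each by 1 probe set. Eif4ebp2 read 853, 835.7 and 906.7 in the overexpressed arrays, 557.5, 511.5 and 661.1 in wildtype and 541.1, 663.2 and 621.8 in knockdown by its brightest probe set, 1436158_at. The overexpressed arrays were above all 6 others, which overlapped. Eif4ebp2 rose by 0.58 ± 0.12 (1.49-fold, limma adjusted p = 0.0135), a call lost without wildtype array B (0.0635). Its other 4 probe sets gave 0.05 to 0.29, none called.

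Eif4ebp1, the best known target of mTORC1 in this step, read 232.6, 280.9 and 269.4 in the overexpressed arrays, 126.1, 162.1 and 165.3 in wildtype and 172.1, 211.4 and 181.9 in knockdown by 1417563_at. The groups did not overlap, with knockdown between the others. Eif4ebp1 rose by 0.73 ± 0.18 by this probe set (1.66-fold, limma adjusted p = 0.0263), which was lost without any 1 overexpressed array or without wildtype array A or B (0.0531 to 0.0941). Its other 2 probe sets gave 0.12 ± 0.09 (the brightest) and 0.24 ± 0.08 (adjusted p = 0.106), so the size of the change was not shared. Eif4enif1, the transporter that carries eIF4E into the nucleus, had a value of 0.26 ± 0.12 (adjusted p = 0.247).

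Eif6, which binds the large ribosomal subunit, acts in its maturation and keeps it from joining the small one, was among the clearest changes. It read 5360.3, 5468.5 and 5440.7 in the overexpressed arrays, 3554.5, 3728.8 and 4041.4 in wildtype and 4380.1, 3968.4 and 4299.7 in knockdown. All overexpressed arrays lay above the other 6, and the knockdown and wildtype arrays overlapped. Eif6 rose by 0.52 ± 0.08 (1.44-fold, limma adjusted p = 0.00284), a call held in all 18 alternatives.

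Eif5a encodes the hypusine-bearing factor eIF5A, which helps peptide bond formation at difficult sequences. Its probe set 1437859_x_at read 9699.2, 10357 and 10627 in the overexpressed arrays, 6854.4, 7765.1 and 8419.4 in wildtype and 8778.4, 8813.4 and 10137 in knockdown. Both altered groups lay above wildtype and overlapped each other. Eif5a rose by 0.42 ± 0.10 in overexpressed over wildtype (1.33-fold, limma adjusted p = 0.0247). The brightest probe set, 1451470_s_at, gave 0.16 ± 0.11 (limma adjusted p = 0.456). The x and the s in these 2 names mark probe sets whose probes can match other transcripts. The call was lost without any 1 overexpressed array or wildtype array A or B (0.0509 to 0.0792), with a common array median (0.0656) and without the mean-variance trend (0.0956).

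**Figure D2:**
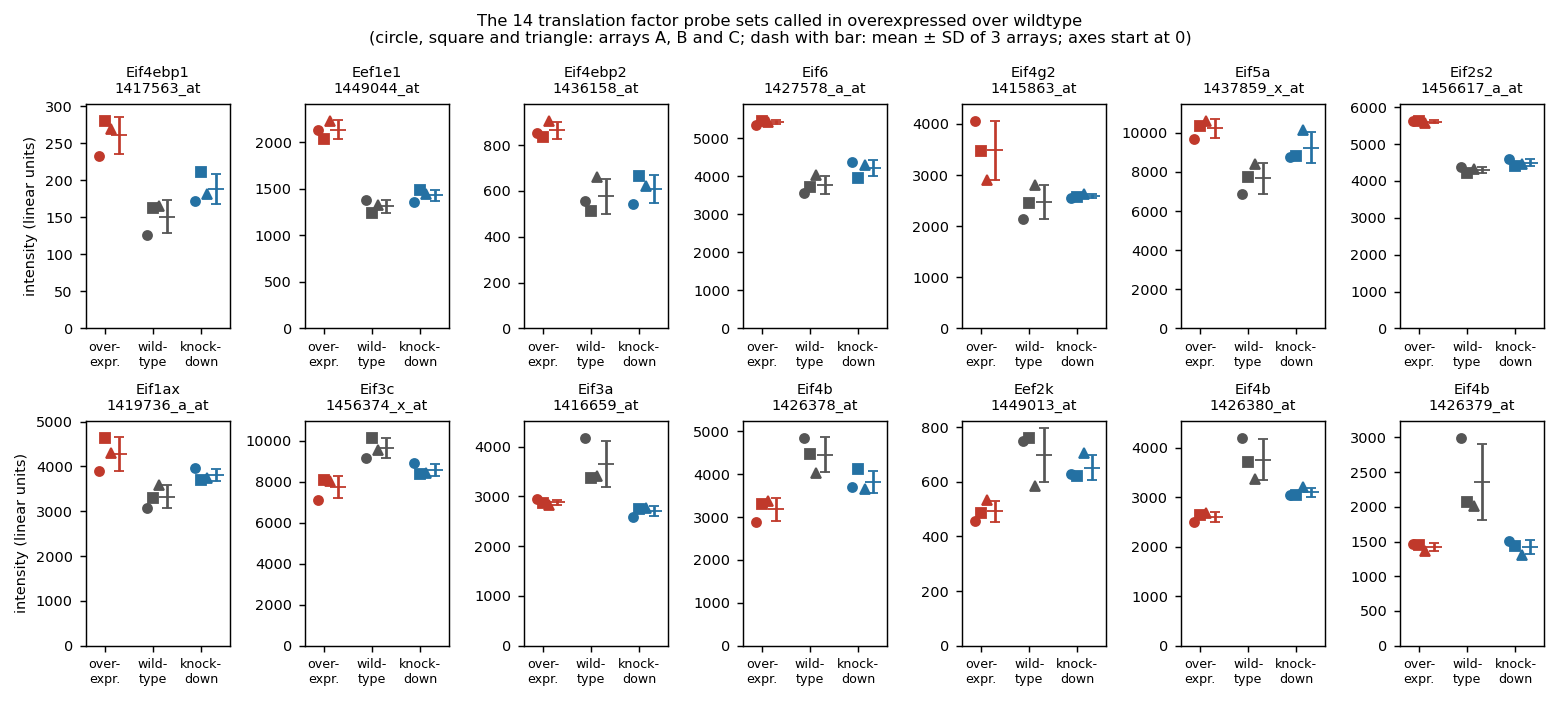
Intensity (linear units, axes from 0) in each of the 9 arrays for the 14 probe sets called in overexpressed over wildtype, with circle, square and triangle for arrays A, B and C and dashes with bars for the mean ± SD of 3 arrays. The overexpressed arrays lie wholly above or wholly below the wildtype arrays in each panel, and in the 3 Eif4b panels wildtype array A is the highest of the 9.

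Of the 6 genes of eEF1 and eEF2, 1 was called. Eef1e1 encodes a small eEF1-like protein, also named AIMP3 or p18, that belongs to the multi-tRNA synthetase complex rather than to the elongation complex. It read 2134.8, 2034.1 and 2231.1 in the overexpressed arrays, 1374.3, 1234.4 and 1328.4 in wildtype and 1359.1, 1482.6 and 1439.4 in knockdown. The overexpressed arrays were above all 6 others, and the wildtype and knockdown arrays overlapped. Eef1e1 rose by 0.69 ± 0.08 (1.62-fold, limma adjusted p = 0.000914), with a smaller p than any other member, and the call held in all 18 alternatives.

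The core elongation factors were not called. Eef1a1, which delivers aminoacyl tRNA, gave -0.04 ± 0.10 (limma adjusted p = 0.871), and Eef1a2, its neuronal and muscle form, gave -0.20 ± 0.09 (adjusted p = 0.214). Eef2 read 14676.1, 15934.5 and 17302.8 in the overexpressed arrays and 19717.1, 18968.2 and 17828.4 in wildtype, which did not overlap, with a difference of -0.24 ± 0.09 (adjusted p = 0.148). The exchange factor genes Eef1b2 and Eef1d gave 0.04 ± 0.21 and -0.27 ± 0.09 (adjusted p = 0.955 and 0.103).

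Among the 4 genes for enzymes that modify elongation factors, Eef2k was called lower. It encodes the kinase that phosphorylates and inactivates eEF2. Eef2k read 456.3, 486 and 532.5 in the overexpressed arrays, 749.3, 760.7 and 582.9 in wildtype and 629.6, 621.2 and 704.7 in knockdown. The overexpressed arrays were the lowest 3 of the 9, and wildtype array C was closest to them. Eef2k fell by 0.48 ± 0.13 (0.715-fold, limma adjusted p = 0.0362), a call lost without any 1 overexpressed array, wildtype array A or B, or knockdown array A (0.0529 to 0.142), and with the replicate block (0.063). A common array median (0.077) and a fit without the mean-variance trend (0.0839) also lost this call. The methyltransferase genes Eef1akmt1, Eef1aknmt and Eef2kmt gave 0.29 ± 0.17, 0.63 ± 0.34 and -0.27 ± 0.23, none called, and the last 2 were below the median brightness of all probe sets.

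Probe sets of 1 gene did not always move together. Of the 9 called genes with several probe sets, Eif4b was the only one with all of them called in overexpressed over wildtype. All probe sets of Eif4b, Eif3a and Eif3c lay below 0 and all those of Eif4ebp1, Eif4ebp2, Eif5a and Eif1ax lay above 0. Eif2s2 and Eif4g2 each had 1 probe set of opposite sign to the called one in this comparison.

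**Figure D3:**
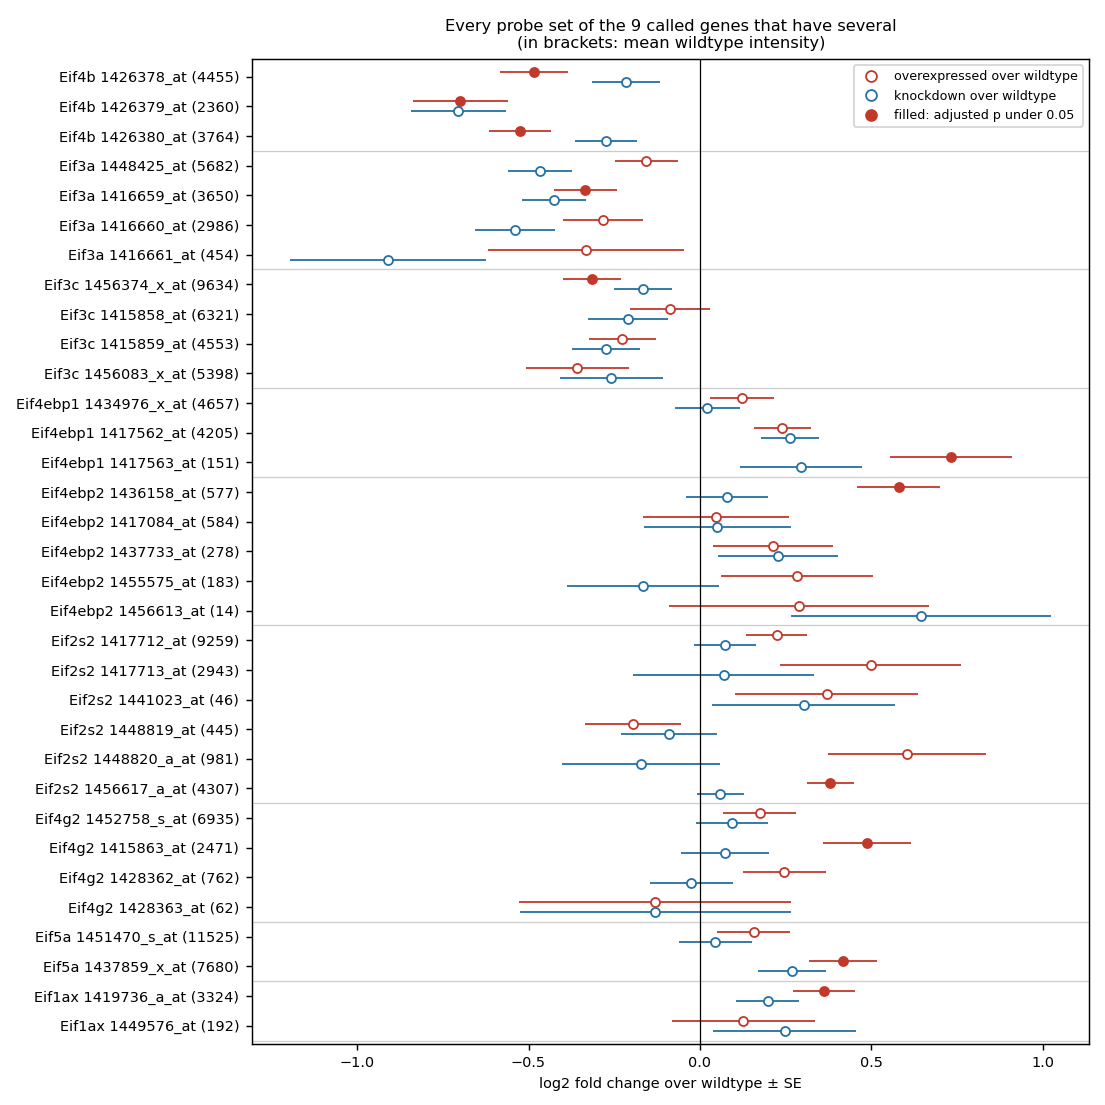
Log2 fold change over wildtype ± SE on the log2(intensity + 16) scale for each probe set of the 9 called genes that have several, red for overexpressed, blue for knockdown, filled for adjusted p under 0.05, with the mean wildtype intensity in brackets. The Eif4b probe sets lie together on the left (-0.48 to -0.70 with raised Tcof1), while those of Eif2s2 lie on both sides of 0.

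When Tcof1 was knocked down, no translation factor transcript was called against wildtype. The background was small too, with 0.0133% of all probe sets called (3 of 22626). At an unadjusted p under 0.05, 13 of 118 member probe sets (11%) passed, 5 higher and 8 lower, against 10.9% of all. The knockdown and wildtype arrays did not overlap in 20 of 118 (16.9%, background 15.6%). The median over the 52 genes was 0.00042, beside 0.04 for all genes, with 27 above 0 and 25 below. By role, 8 of 11 eIF3 genes lay below 0 (median -0.10), and all 3 eIF4E inhibitor genes lay above 0 (median 0.08). This stood beside 57.3% of all genes above 0. Other roles had medians farther from 0. These were 0.20 for the enzymes that modify elongation factors, 0.16 for Eif6 alone, -0.13 for start site selection and -0.11 for the eIF2 alpha kinases. Without wildtype array A the eIF3 median was -0.0019, and without wildtype array B the eIF4E inhibitor median was -0.0013. Both comparisons with wildtype share its 3 arrays.

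The smallest p among the members belonged to Eif4b and Eif3a, the helicase cofactor and the scaffold subunit. Eif4b gave -0.71 ± 0.14 by 1426379_at (95% interval -1.01 to -0.40, unadjusted p = 0.00037, limma adjusted p = 0.106), and -0.27 and -0.22 by its other probe sets. Eif3a read 3980.8, 4275.5 and 4026.4 in the knockdown arrays, 6219.4, 5792.5 and 5035 in wildtype and 4913.9, 4948.5 and 5382 in the overexpressed arrays by its brightest probe set, 1448425_at. The knockdown arrays were the lowest 3 of the 9. The difference was -0.47 ± 0.09 (95% interval -0.67 to -0.26, unadjusted p = 0.00039, adjusted p = 0.106), and it passed the threshold only in the fit without wildtype array C (0.0346).

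All 4 probe sets of Eif3a lay below 0 in knockdown over wildtype, from -0.42 to -0.91, and wildtype array A was the highest of the 9 arrays in each of them, as in all 3 probe sets of Eif4b. That array was the highest of the 9 in 25 of the 118 member probe sets, more often than any other. The same count over all probe sets was not made. Without it, the values were -0.52 for Eif4b 1426379_at and -0.40 for Eif3a 1448425_at, with adjusted p of 0.17 and 0.274. In overexpressed over wildtype the same 2 probe sets gave -0.70 and -0.16.

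The other members with the smallest p in this comparison were Eif4ebp1 (0.26 ± 0.08 by 1417562_at, limma adjusted p = 0.303), Eif1b (0.34 ± 0.12, adjusted p = 0.325), Eif3c (-0.27 ± 0.10 by 1415859_at, adjusted p = 0.354), Eif1a (-0.36 ± 0.13, adjusted p = 0.355), Eif4e3 (0.53 ± 0.19 by 1417978_at, adjusted p = 0.356) and Eif5a (0.27 ± 0.10 by 1437859_x_at, adjusted p = 0.362). Eif1b encodes an eIF1 that guards start codon choice, and Eif4e3 an eIF4E relative. For Eef1e1 and Eif6, the clearest changes with raised Tcof1, the knockdown values were 0.12 (95% interval -0.06 to 0.30) and 0.16 (-0.02 to 0.33).

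Set directly against each other, the overexpressed cells had higher Eef1e1, Eif6, Eif2s2 and Eif4ebp2 than the knockdown cells, and no member was called lower. Of 118 probe sets 4 were called (3.39%, background 7.57%), all higher (background 3.43%), and 0 were lower (background 4.14%). At an unadjusted p under 0.05, 15 were higher and 11 lower, together 22% of the members beside 22.5% of all probe sets. The arrays of the groups did not overlap in 38 probe sets (32.2%, background 28.1%). The median over the 52 genes was 0.0017, beside -0.08 for all genes.

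Eef1e1 was higher by 0.57 ± 0.08 (limma adjusted p = 0.00296), and this held in all 18 alternatives. Eif6 was higher by 0.36 ± 0.08 (adjusted p = 0.0213), Eif2s2 by 0.32 ± 0.07 with 1456617_a_at (adjusted p = 0.0198) and Eif4ebp2 by 0.50 ± 0.12 with 1436158_at (adjusted p = 0.0315). Each of these 3 calls was lost in 6 of 18 alternatives: without any 1 overexpressed array for all 3 genes, without knockdown array B or C for Eif6 and Eif2s2 (0.0507 to 0.0723 with single arrays left out), without knockdown array A or C for Eif4ebp2 (0.07 to 0.108), and without the mean-variance trend. Of the 5 Eif4ebp2 probe sets, 3 had the opposite sign in this comparison.

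Next by p were Eif2ak2 (0.82 ± 0.23 by 1422006_at, limma adjusted p = 0.0566), Eif5 (0.31 ± 0.09 by 1454664_a_at, adjusted p = 0.0621), Eif3a (0.31 ± 0.09 by 1448425_at, adjusted p = 0.0684) and Eif2d (-0.40 ± 0.12, adjusted p = 0.0742), none of which passed. The Eif2ak2 probe set read 182.1, 145.7 and 138.5 in the overexpressed arrays, 113, 83.4 and 129.6 in wildtype and 67.6, 84.9 and 90.3 in knockdown. Its overexpressed arrays were above all others. The brightest Eif2ak2 probe set, 1422005_at, gave 0.25 in overexpressed over knockdown (limma adjusted p = 0.48).

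Other genes of translation and its control, outside the naming rule, were followed in a list of 30, of which 28 were measured. The list was chosen with earlier results of these data known. By brightest probe set, 2 of the 28 were called higher and 4 of the 28 lower with raised Tcof1. Among all genes, 5.04% were called higher and 6.21% lower. In knockdown over wildtype none of the 28 was called. The largest change was in Pdcd4, whose protein inhibits the helicase eIF4A. Pdcd4 read 1336.1, 1580.5 and 1321 in the overexpressed arrays, 4740, 3653.4 and 3278.9 in wildtype and 2435.2, 3129.3 and 2970.9 in knockdown. The groups did not overlap, with the overexpressed arrays lowest and the knockdown arrays between. Pdcd4 fell by 1.44 ± 0.14 (0.369-fold, limma adjusted p = 0.000444), and gave -0.44 ± 0.14 in knockdown over wildtype (adjusted p = 0.311).

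Mknk2, a kinase that phosphorylates eIF4E, read 1112, 1113 and 1272.4 in the overexpressed arrays, 1876.7, 1801.5 and 1973.1 in wildtype and 1655.6, 1365.7 and 1581.4 in knockdown, again with no overlap. It fell by 0.69 ± 0.10 (limma adjusted p = 0.00214), and its second probe set was also called. Paip2, which displaces the poly(A) binding protein, fell by 0.65 ± 0.11 (adjusted p = 0.00425). The calls of Pdcd4, Mknk2 and Paip2 held in all 18 alternatives.

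Denr and Mcts1 encode the partners of a complex that recycles the small subunit and aids reinitiation, and they went in opposite directions. Denr rose by 0.50 ± 0.10 (limma adjusted p = 0.0127), lost without wildtype array B (0.0585) and without the mean-variance trend (0.0549). Mcts1 fell by 0.34 ± 0.10 (limma adjusted p = 0.0491), a call lost in 12 of 18 alternatives. Among them were the fits without any 1 array other than wildtype array C (0.0606 to 0.139) and the fit with the replicate block (0.0741). Etf1, the release factor of termination, rose by 0.40 ± 0.10 by its brightest probe set (limma adjusted p = 0.0299). This call was lost without overexpressed array A or C or wildtype array A or B (0.0943 to 0.117). It was also lost with a common array median (0.0673) and without the mean-variance trend (0.105). The other Etf1 probe sets gave -0.11 to 0.19, none called. None of the 7 measured genes of the mTORC1 and S6 kinase axis was called.

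In overexpressed over knockdown, Denr (0.65, limma adjusted p = 0.00475) and Abce1, the ribosome recycling ATPase (0.39, adjusted p = 0.0388), were called higher. Pdcd4 (-0.999, adjusted p = 0.00306), Paip2 (-0.50, adjusted p = 0.0195), Mknk2 (-0.39, adjusted p = 0.0371) and Mycn, the Myc family transcription factor (-0.50, adjusted p = 0.021), were called lower. Among all genes by brightest probe set, 3.56% were called higher and 5.25% lower in this comparison. By its brightest probe set Mycn was not called against wildtype (-0.24, limma adjusted p = 0.21). A dimmer Mycn probe set was called lower over knockdown (-0.75, limma adjusted p = 0.0349) and over wildtype (-0.68, adjusted p = 0.0432). The alternatives were not followed for these calls. The dimmest Mycn probe set had the opposite sign in both comparisons (0.79 and 0.54) and was not called. The Abce1 call was lost without 6 of the 9 arrays (overexpressed A and B, wildtype B and each knockdown array, 0.0563 to 0.129), with the replicate block (0.0551) and without the mean-variance trend (0.124). Those of Mknk2 (without overexpressed A or B, wildtype B or knockdown A or C, 0.0589 to 0.129), Paip2 (without overexpressed A or B or knockdown B or C, 0.0554 to 0.0802) and Mycn (1417155_at, without overexpressed A or C or knockdown B or C, 0.0632 to 0.069) also depended on single arrays. In that order, they were also lost with a common array median (0.153, 0.0584 and 0.0639) and without the mean-variance trend (0.119, 0.081 and 0.0807).

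**Figure D4:**
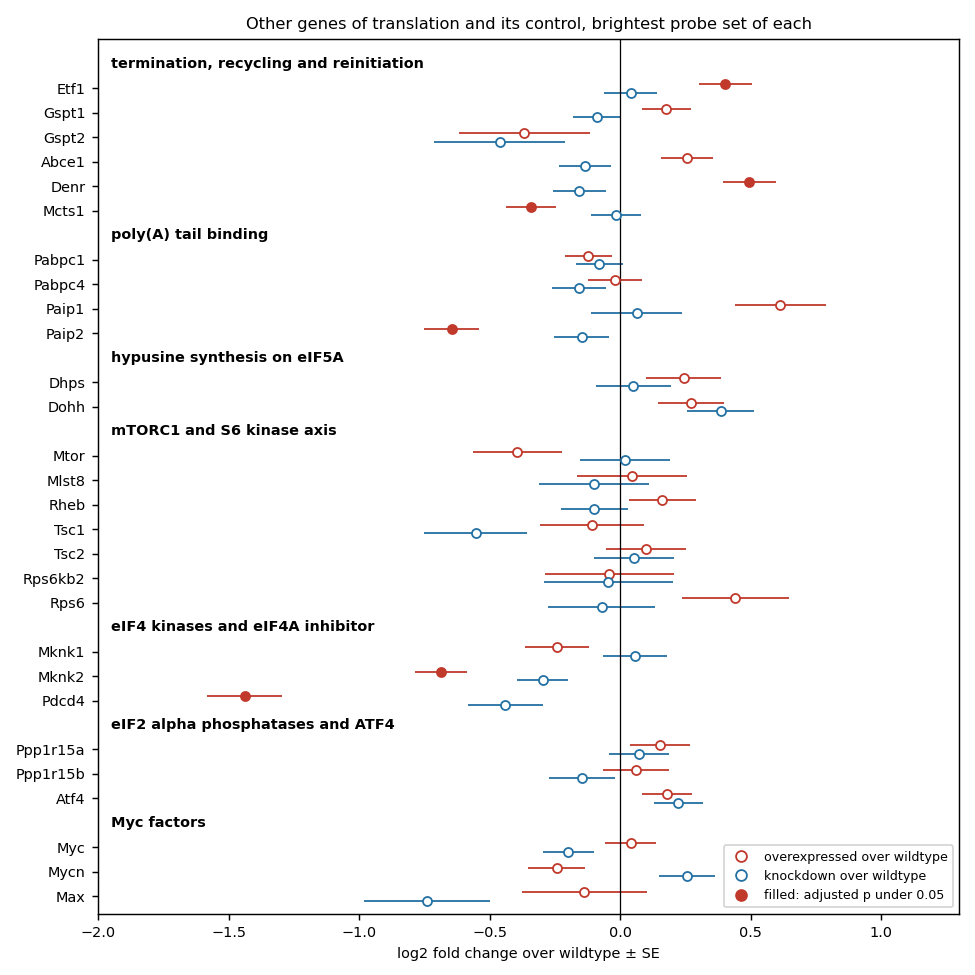
Log2 fold change over wildtype ± SE on the log2(intensity + 16) scale for the brightest probe set of each of the 28 measured translation genes outside the naming rule, grouped by function, red for overexpressed, blue for knockdown, filled for adjusted p under 0.05. The filled point of Pdcd4 lies far to the left of the rest (-1.44), and no blue point is filled.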

How the data were processed

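The authors deposited a table of linear intensity values of a 1-colour array with probe set names of the Affymetrix kind. The sources used here do not give the image software, the background correction or detection calls. Without the lowest and highest 2% of values, the mean was 500.18 to 500.2 on each array, so the deposited values had been scaled. As array medians differed 1.13-fold, under a limit of 1.2, they were used as deposited. Of 22690 probe sets, 64 controls were left out. Platform annotation gave 1 gene symbol for 20380, several for 691 and none for 1555. All 52 member genes matched RefSeq (GRCm38.p6) by identifier, and 0 symbols differed.

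Intensities were converted to log2(intensity + 16), which understates changes of dim probe sets, and fitted in limma 3.58.1 under R 4.3.3 (lmFit and eBayes, trend on) with a mean per group over 9 arrays. Benjamini-Hochberg adjustment ran over 22626 probe sets per comparison. Fold changes are on that scale, ± SE. The number of arrays limits the precision. The fit was tested on simulated data. The members, the gene lists and their roles were chosen with earlier results of these data known.

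Named were every gene with a call (up to 15 per direction), the 8 genes of smallest p in a comparison with under 5 calls, the gene with the smallest p per role in overexpressed over wildtype, genes with probe sets of opposite sign to a call, called genes of the wider list, and Tcof1. Other members are named to complete their group, chosen after their values were seen.

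The groups share the letters A, B and C. Deviations from group means correlated at -0.0123 to 0.102 between same-letter arrays, at or below 0.1 in 8 of 9 pairs, so the letters were not used as pairs. Alternatives changed the pseudocount (1 or 64), dropped probe sets below the 40th percentile of brightness, scaled arrays by quantiles or to a common median, left off the trend, weighted arrays by quality, used the letter as a replicate block, dropped the probe set types that can match several transcripts (s, x and f among them), left out each array in turn and, for medians, averaged the probe sets of a gene.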

Additional observations from a re-analysis of the deposited data

How the results depend on the processing

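With 3 arrays per group and no detection calls, small changes of dim probe sets cannot be resolved. The count of 14 members called in overexpressed over wildtype became 9 with a common array median, 6 without the mean-variance trend, 19 above the 40th percentile, 20 with array weights and 6 to 19 with single arrays left out, while the count over all probe sets went from 2169 to 1810, 1339, 2703, 2827 and 1090 to 2404. The left-out arrays that lowered it by over 1.5 times were overexpressed A and B (7 each) and C (9) and wildtype A (8) and B (6). With the letter as a replicate block 12 were called, 10 of them among the 14. The sources used here do not say whether the letters pair the arrays. Above the 40th percentile, only 13576 probe sets were tested in overexpressed over wildtype. Of these, 19.9% were called, against 9.59% of all probe sets without this filter. Of the 118 member probe sets, 16 lay below that percentile. The rise from 14 to 19 members thus came with a higher background, and it does not show a larger share of calls among members than among all probe sets. In knockdown over wildtype the count stayed at 0 in every alternative except without wildtype array C, where it was 1 (the 3 calls over all probe sets became 46 above the 40th percentile, 24 with array weights, 0 with the block and 0 to 103 with arrays left out), and the median moved to -0.034 with a common array median and ran from -0.034 to 0.017 with arrays left out. In overexpressed over knockdown the count of 4 members became 8 above the 40th percentile and 8 with array weights. It became 2 without the trend, 6 with the replicate block and 1 to 6 with arrays left out. Over all probe sets, in that order, the count went from 1713 (7.57%) to 2205 (16.2%), 1991 (8.8%), 834 (3.69%), 1600 (7.07%) and 704 to 2048 (3.11% to 9.05%). The median of 0.0017 became 0.064 with a common array median. Here the member count was 1 without overexpressed A, overexpressed B or knockdown C and 2 without overexpressed C. The cause of these changes was not tested. Of 590 pairs of a called gene value with an alternative, 455 kept their call, 135 lost it and 0 changed sign, and 10 of 33 called values held in all. Only uncalled values near 0 changed sign. Outside the left-out arrays, these were Eif4b 1426379_at over knockdown (-0.015 quantile, -0.0061 weights), Eif4e3 over knockdown (1417977_at 0.051 common median, 1417978_at -0.025 quantile), Eif4ebp1 (1417562_at over knockdown 0.041 and 1434976_x_at in knockdown -0.013, common median), and in knockdown over wildtype Eif5 1454664_a_at (0.0096 quantile, 0.011 weights), Mcts1 (0.0073 quantile, 0.00076 weights) and Tcof1 1424643_at (-0.0012 weights). With arrays left out, overexpressed over wildtype ran from -0.19 to 0.073 for Eif2ak2 1422005_at, -0.063 to 0.12 for Eif1a 1424343_a_at and -0.15 to 0.037 for Eif5 1433631_at. Knockdown over wildtype ran from -0.023 to 0.17 for Eif4g2 1415863_at, -0.065 to 0.082 for Eif4ebp1 1434976_x_at, -0.0013 to 0.18 for Eif4ebp2 1436158_at, -0.11 to 0.037 for Eif2d 1436724_a_at, -0.14 to 0.0035 for Eif2ak3 1449278_at, -0.0049 to 0.21 for Eif4g2 1452758_s_at, -0.076 to 0.039 for Eif5 1454664_a_at, -0.088 to 0.13 for Tcof1 1424643_at, -0.012 to 0.13 for Etf1 1424013_at and -0.070 to 0.072 for Mcts1 1425018_at. Overexpressed over knockdown ran from -0.19 to 0.12 for Eif4e3 1417977_at, -0.051 to 0.053 for Eif4b 1426379_at, -0.033 to 0.18 for Eif4g2 1452758_s_at, -0.098 to 0.023 for Eif4ebp1 1417562_at, -0.012 to 0.095 for Eif3c 1415859_at and -0.10 to 0.16 for Eif4e3 1417978_at.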
